A study of Homo sapiens with 10 samples.

Results

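AP-1 is a family of transcription factors that bind DNA as pairs of basic leucine zipper proteins. The 10 genes described here are its Fos members FOS, FOSB, FOSL1 and FOSL2, its Jun members JUN, JUNB and JUND, the related ATF3, and the small MAF genes MAFF and MAFG. They were taken as the entries of the total and labelled read tables whose Ensembl identifier maps to these symbols, and all 10 of 10 were found among 59204 human genes. All 10 passed the filter on low total counts (a mean of at least 20 reads per library), as did 11797 genes in all. In the labelled counts 7 of the 10 passed the same filter, and FOS, FOSB and FOSL2 did not.

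Fos proteins cannot pair with themselves and bind DNA with a Jun partner, whereas Jun proteins also pair with each other. FOS, FOSB, JUN, JUNB and ATF3 are classic immediate-early or stress-response genes: serum, growth factors or stress switch them on within minutes without new protein synthesis, and several of their mRNAs are known to be short-lived. Small MAF proteins lack an activation domain and take their activity from partners such as NFE2, a factor of red-cell precursors, or NFE2L2, the regulator of the oxidative stress response.

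The cells were K562, an established chronic myeloid leukaemia line that carries the BCR-ABL fusion and has red-cell precursor features. All were labelled for 12 h with 30 µM 4-thiouridine, a nucleoside taken into new RNA, with the medium renewed every 3 h. They were then washed and put into medium with 3 mM uridine plus 1 µM AZ-5576 (an inhibitor of CDK9, the kinase that releases paused RNA polymerase II), 1 µM JQ1 (an inhibitor of the BET bromodomain proteins) or DMSO, the vehicle. The question is how RNA loss and inhibitor response are related. The groups are AZ-5576, JQ1 and DMSO, each at 2, 4 and 8 h of the chase, and a 0 h library that the 3 arms share. With a single library per condition (n = 1) differences could not be checked in replicates, and p-values here measure how far 10 libraries scatter about a time-course model.

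Libraries held 10293371 to 16008906 total reads and 2031796 to 3868420 labelled reads. RNA of fly S2 cells, added at 5%, gave 1208073 to 2366155 reads, and levels are given as reads per 1000000 fly reads (fly-scaled reads), a scale set by the mass of purified RNA and not by cell number. Human reads per fly read ran from 5.38 in AZ-5576 at 8 h to 9.64 in DMSO at 2 h. Of 11 markers of K562 cells all were read in every library, with summed levels of 85062 to 127826 in AZ-5576, 83706 to 92557 in JQ1, 88538 to 109249 in DMSO and 102102 at 0 h. The 9 markers of other cell types summed to 382 to 593, 402 to 593, 574 to 685 and 594 in the same groups. The T-cell marker CD3E, the B-cell marker MS4A1 and the liver marker ALB had at most 8 reads in any library, whereas the epithelial marker EPCAM had 374 to 902 reads and the monocyte marker LYZ 128 to 239. Their part in the results was not tested. In bulk RNA, fewer cells that express a gene and less of its RNA per cell cannot be told apart.

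In GENCODE v29 (GRCh38) the genes lie apart: FOS on chromosome 14 (75278774 to 75282230), FOSB, JUNB and JUND on chromosome 19 (45467995 to 45475179, 12791496 to 12793315 and 18279760 to 18281622), FOSL1 on chromosome 11 (65892049 to 65900573), FOSL2 on chromosome 2 (28392448 to 28417312), JUN and ATF3 on chromosome 1 (58780788 to 58784327 and 212565334 to 212620777), MAFF on chromosome 22 (38200767 to 38216511) and MAFG on chromosome 17 (81918270 to 81927714). JUN, JUNB and JUND each have a single exon. FOSB overlaps ERCC1, FOSL2 overlaps FLJ31356 and AC104695.3, JUNB overlaps HOOK2, MAFF overlaps PLA2G6, and MAFG overlaps SIRT7 and AC145207.8. AC104695.3 lies on the same strand as FOSL2, and SIRT7 on the same strand as MAFG, so counting by strand would not separate them. The other neighbours lie on the opposite strand, and the sources used here do not say whether the authors counted by strand. Values of these 5 genes are thus uncertain to the extent that reads of the neighbour were counted. FOS, FOSL1, JUN, JUND and ATF3 overlap no other annotated gene.

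Promoter sequence is shown for 4 genes, chosen after their values were seen, whose total RNA was far higher at 2 h than at 0 h in DMSO or differed widely between the inhibitors: the 150 bases before the transcription start in RefSeq's promoter table (GRCh38.p14), 5′ to 3′ on the gene's strand. Capitals mark TGACG (the core site bound by CREB and ATF proteins), TGACATCA (the Jun/ATF type of element known from the JUN promoter) and TATAAA (the TATA box letters).
FOS, chr14:75278678-75278827, plus strand: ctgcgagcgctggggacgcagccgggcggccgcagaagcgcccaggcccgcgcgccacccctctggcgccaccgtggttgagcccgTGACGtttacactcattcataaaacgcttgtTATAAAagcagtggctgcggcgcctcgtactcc
FOSB, chr19:45467846-45467995, plus strand: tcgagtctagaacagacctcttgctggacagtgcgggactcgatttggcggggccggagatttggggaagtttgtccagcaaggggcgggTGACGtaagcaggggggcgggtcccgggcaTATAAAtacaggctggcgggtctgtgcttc
JUNB, chr19:12791336-12791485, plus strand: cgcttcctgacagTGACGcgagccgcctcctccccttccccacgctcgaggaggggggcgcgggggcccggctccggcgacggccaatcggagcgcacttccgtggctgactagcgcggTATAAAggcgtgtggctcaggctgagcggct
JUN, chr1:58784048-58784197, minus strand: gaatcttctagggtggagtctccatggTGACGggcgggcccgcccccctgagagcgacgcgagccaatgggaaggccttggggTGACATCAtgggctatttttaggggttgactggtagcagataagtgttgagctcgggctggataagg
TGACG began 64 bases before the start in FOS, 60 in FOSB, 137 in JUNB and 123 in JUN, and TATAAA began 33, 30 and 31 bases before it in FOS, FOSB and JUNB. JUN held TGACATCA 67 bases before its start. The table has 11 promoters of 300 bases (250 before to 50 after the start) for 9 of the 10 genes. TGACG, searched on both strands, was found in 8 of these 11 promoters, from 8 genes, and 24.6% of all 35116 promoters hold it. TATAAA, searched on the gene's strand, was found in 4 of the 11 (7.33% of all promoters), those of FOS, FOSB, JUNB and ATF3. TGACATCA, searched on both strands, was found in JUN and ATF3 (2.61%). Its palindromic relative TGACGTCA, which contains TGACG on both strands, was found in JUND and MAFF (1.85%). TGANTCA, with any base at N and so a wider pattern than the AP-1 site, was found in FOSL2 (7.71%). A match is a description of letters and not evidence of binding.

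The 3′ UTRs were searched on the RNA strand for ATTTA, the core of AU-rich elements that mark many short-lived mRNAs, and for TTATTTATT, a longer form that contains it. In the transcript used for each gene (GENCODE v29), all 10 held at least 1 ATTTA, as do 65.8% of 19030 protein-coding genes, and 7 of 10 held at least 3, as do 39.3%. A longer 3′ UTR has more places for a match, and these counts were not adjusted for length. Lengths ran from 500 bases in JUNB to 4864 in FOSL2, beside a median of 969 over all genes. Of the 7 genes with at least 3 ATTTA only FOS was shorter than this median, and so were FOSL1, JUNB and JUND among the others. TTATTTATT was found in FOS, FOSL2 and MAFF, and in 7.92% of all genes. The sites of these 3 genes are shown beside those of FOSB and JUND, which hold the short form only, with ATTTA in capitals.
FOS, chr14:75282058-75282087, plus strand: tgtgtttttaATTTATTTAttaagatggat
FOSL2, chr2:28416349-28416378, plus strand: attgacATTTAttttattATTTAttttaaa
MAFF, chr22:38216401-38216430, plus strand: ggctcctagaATTTATTTAtttcctgactt
FOSB, chr19:45473876-45473905, plus strand: tcctgctggagtgATTTAtactgtgaaatg
JUND, chr19:18279998-18280027, minus strand: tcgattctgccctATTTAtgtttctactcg

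During the chase itself FOSB and FOS total RNA was higher at 2 h than at 0 h, and lower at 8 h than at 2 h, in every arm. FOSB encodes a Fos protein best known from brain and bone, and FOS is the founding member of the family. FOSB was at 235, 82.4 and 9.30 fly-scaled reads at 2, 4 and 8 h in AZ-5576, at 200.2, 87.2 and 23.5 in JQ1 and at 565, 113 and 17.6 in DMSO, against 1.35 at 0 h. These values rest on 320, 121 and 22 reads in AZ-5576, 321, 159 and 41 in JQ1, 682, 155 and 31 in DMSO, and 2 reads at 0 h. Every library after 0 h thus lay above the 0 h library, and the 2 h library was the highest of its arm.

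The ratio of FOSB at 2 h to 0 h was 174 in AZ-5576 (exact 95% interval 47.8 to 1442), 148 in JQ1 (40.7 to 1228) and 418 in DMSO (115 to 3456). All intervals on reads cover counting error only. Among 11797 genes FOSB ranked 2 in AZ-5576, 1 in JQ1 and 1 in DMSO by this ratio. By 8 h it was at 3.96% of its 2 h level in AZ-5576 (interval 2.44% to 6.09%), at 11.7% in JQ1 (8.26% to 16.3%) and at 3.11% in DMSO (2.10% to 4.46%).

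FOS was at 14.0, 6.81 and 6.76 fly-scaled reads at 2, 4 and 8 h in AZ-5576, at 73.6, 31.8 and 16.6 in JQ1 and at 38.9, 5.85 and 5.67 in DMSO, against 4.05 at 0 h. Its counts were low, with 6 reads at 0 h and 118 in the highest library, JQ1 at 2 h. Its 2 h to 0 h ratio was 3.44 in AZ-5576 (interval 1.32 to 10.5), 18.2 in JQ1 (8.10 to 50.5) and 9.60 in DMSO (4.09 to 27.5). FOS and FOSB were the only members at least 2-fold higher at 2 h than at 8 h in all 3 arms, which held for 0.915% of all genes tested. For FOS in AZ-5576 this rests on 19 reads at 2 h and 16 at 8 h. Its 8 h level there was 48.4% of its 2 h level (interval 23.3% to 99.5%). FOS also passed the filter on low counts only with the 2 h libraries included.

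**Figure D1:**
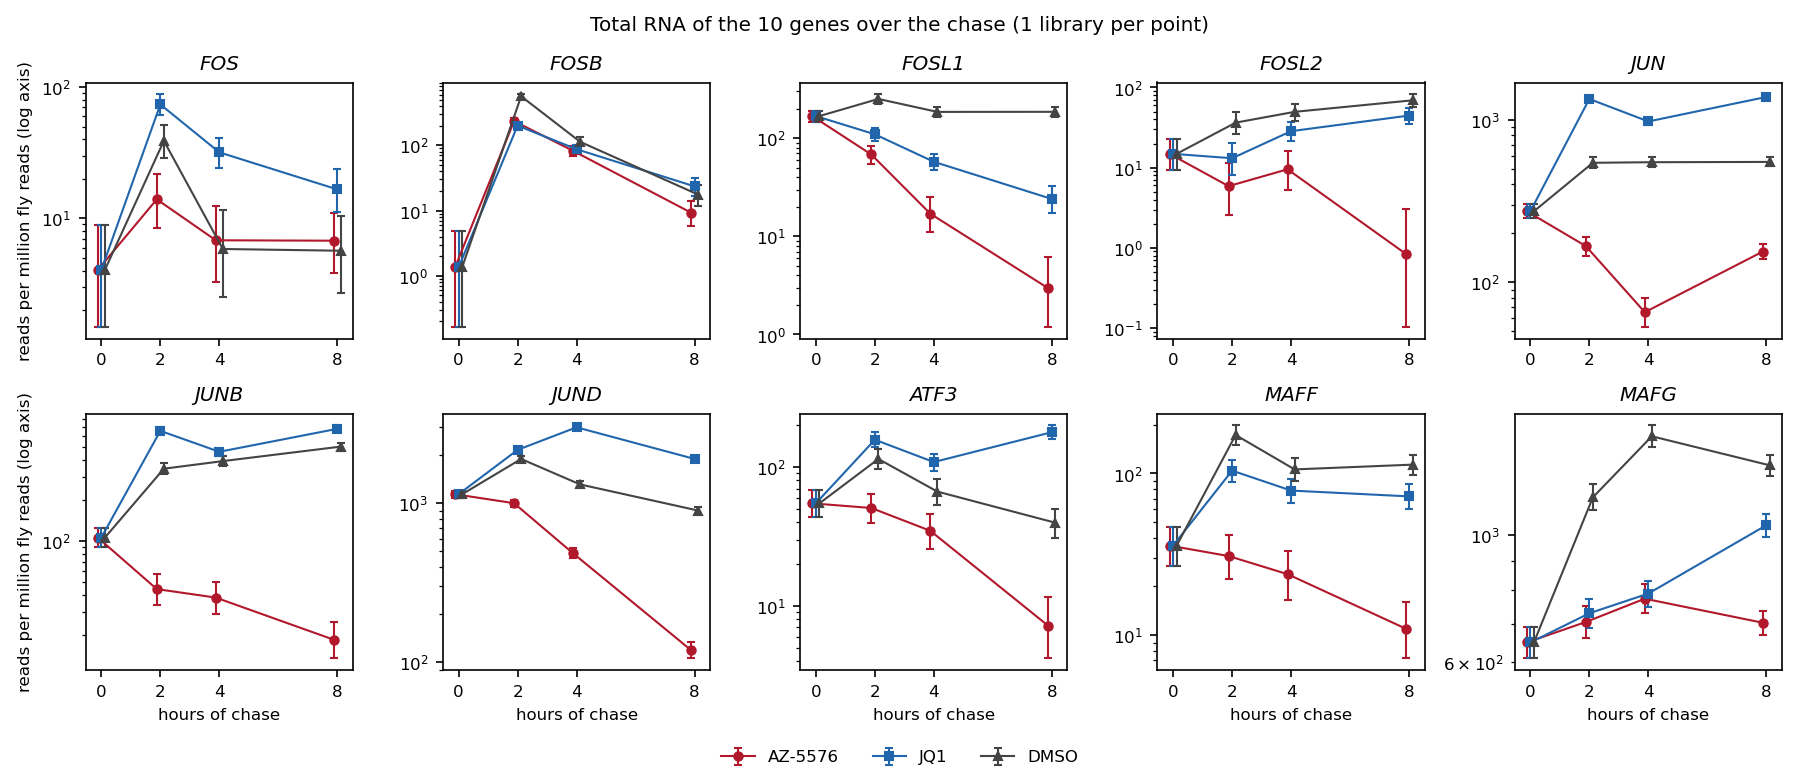
Total RNA of each gene (fly-scaled reads, per 1000000 fly reads, log axis with its own range per panel) against hours of chase in AZ-5576, JQ1 and DMSO, with the shared 0 h library at the left. Points are single libraries and bars are exact 95% counting intervals. FOSB peaks at 2 h in all arms, at 235, 200.2 and 565, and JUN, JUNB, JUND and ATF3 lie lowest in AZ-5576 and highest in JQ1 at every hour.

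Relative to the 0 h library, 6 of 10 members were at least 2-fold higher at 2 h in DMSO (FOS, FOSB, FOSL2, JUNB, ATF3 and MAFF), where 7.99% of all genes were. In JQ1 there were also 6 of 10 at 2 h (FOS, FOSB, JUN, JUNB, ATF3 and MAFF), against 5.86% of genes, and in AZ-5576 there were 2 (FOS and FOSB), against 2.89%. FOSL1, FOSL2 and JUNB were instead at least 2-fold lower at 2 h in AZ-5576, 3 of 10 members against 3.57% of genes. The 3 arms share the 0 h library, and time, fresh uridine medium and handling cannot be told apart in these ratios. The median log2 ratio of 2 h to 0 h over the members was -0.20 in AZ-5576, 1.52 in JQ1 and 1.17 in DMSO, beside 0.07, -0.01 and 0.32 over all genes.

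A straight line in log2 level over the chase in DMSO called 4 of 10 members by edgeR's quasi-likelihood test with Benjamini-Hochberg adjustment over all genes, where 28.3% of genes were, 24.5% higher and 3.78% lower. FOSL2, a Fos protein without a strong activation domain, rose by 0.28 ± 0.07 per hour on the log2 scale (SE, adjusted p = 0.00603) and MAFG rose by 0.14 ± 0.03 (adjusted p = 0.00519). FOSB had a slope of -0.51 ± 0.19 per hour (adjusted p = 0.0487) and JUND one of -0.13 ± 0.04 (adjusted p = 0.0220). A straight line does not describe the FOSB peak, since its 8 h library in DMSO was still 13.0 times the 0 h library (interval 3.31 to 112), and JUND too was highest at 2 h. Without the DMSO 8 h library 1 member was called, where 468 of 11663 genes were. Without AZ-5576 at 2 h or DMSO at 4 h 3 were, where 3992 of 11840 and 2904 of 11802 genes were. Without all 8 h libraries the slopes of FOSB and JUND were 0.08 and 0.01.

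Total RNA of 5 of the 10 members was lower in AZ-5576 than in DMSO. JUNB, FOSL1, FOSL2, MAFF and JUN fell past the threshold of an adjusted p of 0.05, by 2.18 to 3.64 on the log2 scale as a mean over 2, 4 and 8 h, and the other 5 had values below 0 without passing. Levels of JUNB, FOSL1 and FOSL2 relative to DMSO were lowest at 8 h, at 0.0371, 0.0159 and 0.0122 of the DMSO level, while JUN was lowest at 4 h.

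JUNB, a Jun protein that often restrains the activity of JUN, was at 44.1, 38.1 and 18.6 fly-scaled reads at 2, 4 and 8 h in AZ-5576, against 344, 391 and 501 in DMSO. The 0 h library had 106. The log2 difference was -3.64 ± 0.44 (SE, adjusted p = 0.00995).

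JUN, the partner of most Fos proteins, was at 167, 65.4 and 154 in AZ-5576, against 542, 547 and 549 in DMSO, and at 273 at 0 h. Its DMSO values were nearly level from 2 to 8 h and its AZ-5576 values were below the 0 h library at each time. AZ-5576 libraries held 0.308 (exact interval 0.263 to 0.358), 0.120 (0.0957 to 0.148) and 0.281 (0.248 to 0.317) of the DMSO level in time order. JUN in AZ-5576 was thus lowest at 4 h, and its 8 h interval lies above its 4 h interval. The log2 difference over the 3 times was -2.18 ± 0.33 (adjusted p = 0.0196).

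FOSL1, a Fos protein without a strong activation domain that is known from invasive tumour cells, was at 68.3, 17.0 and 2.96 in AZ-5576, against 252, 186 and 186 in DMSO, and at 168 at 0 h. The last AZ-5576 library held 7 reads, and its ratio to DMSO was 0.0159 (interval 0.00634 to 0.0331). The log2 difference was -3.57 ± 0.67 (adjusted p = 0.0375). FOSL2 was at 5.88, 9.54 and 0.845 in AZ-5576 (8, 14 and 2 reads), against 36.4, 49.7 and 69.2 in DMSO, and at 14.9 at 0 h. The log2 difference of FOSL2 was -3.29 ± 0.74 (adjusted p = 0.0486).

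MAFF, a small MAF protein whose mRNA is known to respond to stress and cytokines, was at 30.9, 23.8 and 11.0 in AZ-5576, against 173, 106 and 113 in DMSO, and at 35.8 at 0 h. It differed by -2.64 ± 0.41 on the log2 scale (adjusted p = 0.0210). MAFG, the small MAF partner of NFE2 in red-cell precursors, was at 704, 774 and 702 in AZ-5576, against 1164, 1488 and 1324 in DMSO, and at 649 at 0 h. The AZ-5576 libraries stayed near the 0 h library, and the log2 difference of -0.86 ± 0.24 did not pass (adjusted p = 0.0560). It is close to the median of all genes, -0.82.

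JUND, the most steadily expressed Jun gene in many cell types, was at 1002, 485 and 119 in AZ-5576, against 1901, 1315 and 901 in DMSO, and at 1141 at 0 h. Its log2 difference of -1.62 ± 0.44 did not pass in the averaged model (adjusted p = 0.0552). ATF3, a repressor and activator induced by amino acid and endoplasmic reticulum stress, was at 50.7, 34.7 and 7.18 in AZ-5576, against 114, 66.5 and 39.7 in DMSO, with a log2 difference of -1.34 ± 0.56 (adjusted p = 0.0962). FOSB and FOS had differences of -0.89 ± 0.44 (adjusted p = 0.131) and -0.44 ± 0.52 (adjusted p = 0.507). For both, AZ-5576 was lowest relative to DMSO at 2 h, with ratios of 0.416 for FOSB and 0.359 for FOS, and the FOS ratios at 4 and 8 h were 1.16 (interval 0.414 to 3.40) and 1.19 (0.509 to 2.94).

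**Figure D2:**
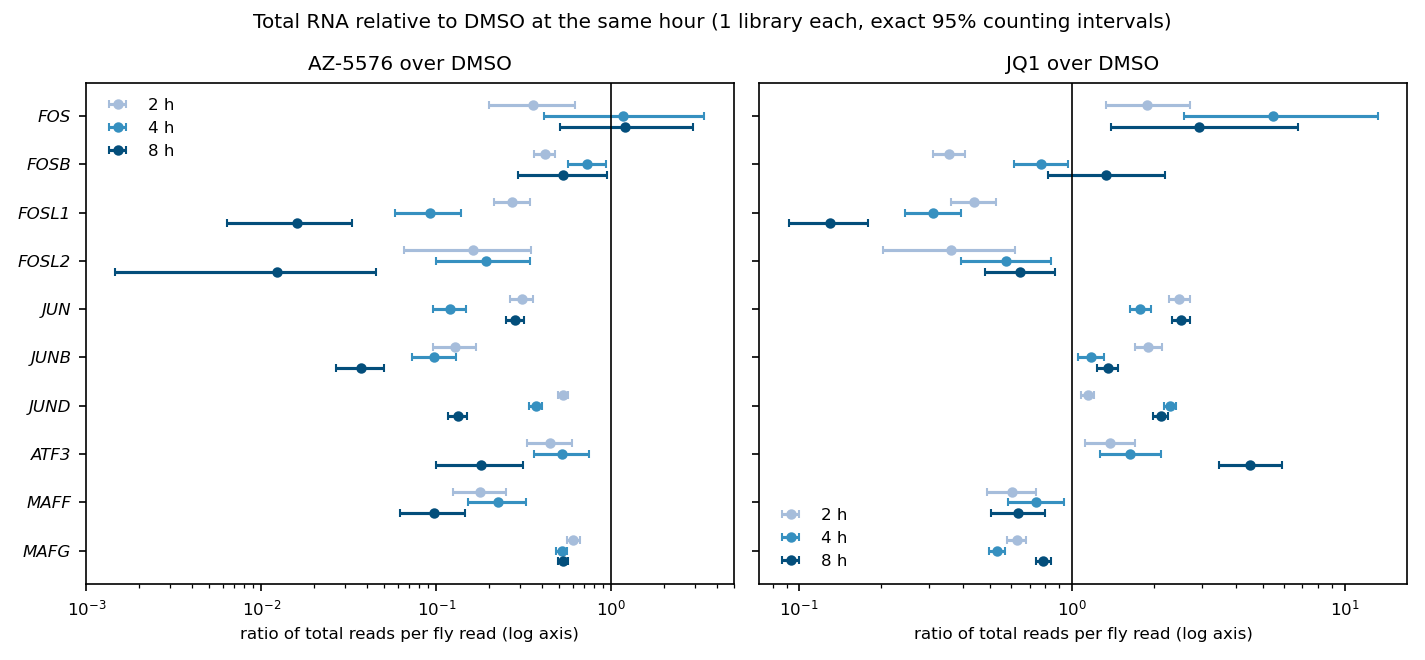
Ratio of total reads per fly read in AZ-5576 (left) and JQ1 (right) over DMSO at 2, 4 and 8 h for each gene, on a log axis whose range differs between the panels. Points are single pairs of libraries, bars exact 95% counting intervals, and the line marks a ratio of 1. FOSL1 in AZ-5576 reaches 0.0159 at 8 h, and ATF3 in JQ1 reaches 4.49 at 8 h.

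In this model (edgeR) 5 of 10 members were lower past the threshold, where 2.38% of the 11797 genes were, and none was higher. The median difference was -1.90 over the members and -0.82 over all genes, and with library scales from the human counts (TMM) the medians were -1.15 and -0.08, with 4 members called lower, where 2.32% of genes were. DESeq2 called 8 members lower, where it called 35.3% of genes lower, and slopes over hours called 8, where they called 73.3%. A model in which the difference grows with hours called 9 of 10 members lower, all but FOS, but it also called 73.5% of all genes lower. The count of 5 rests on single libraries. It was 0 without the 4 h library of AZ-5576, the 4 h library of DMSO or the 8 h library of DMSO, where 2, 1 and 1 genes in all were lower. It was 1 without JQ1 at 4 h (34 of 11744 genes lower) and 3 without JQ1 at 2 h (112 of 11795). It was 8 without AZ-5576 at 2 h (6815 of 11840 genes lower) or without JQ1 at 8 h (2604 of 11738). At single times, the members at least 2-fold lower in AZ-5576 than in DMSO numbered 8 of 10, 6 and 7 in time order, where 9.3%, 32.7% and 71.3% of all genes were. The median log2 ratio at 2 h was -1.58 over the members and -0.25 over all genes, and at 8 h -2.68 and -1.63.

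No member passed for JQ1 against DMSO in the model of all 10 libraries. In a model of the JQ1 and DMSO arms alone, total RNA of JUN, JUNB, JUND, ATF3 and FOS was higher in JQ1. That of FOSL1 and MAFG was lower. Of all genes 1.75% were higher and 20.6% lower in that model. It has fewer libraries and residual degrees of freedom than the model of all libraries, and was not refitted with single libraries left out. JUN was at 1338, 974 and 1377 fly-scaled reads at 2, 4 and 8 h in JQ1, against 542, 547 and 549 in DMSO. Every library of both arms was above the 273 of 0 h. JQ1 libraries held 2.47 (interval 2.26 to 2.70), 1.78 (1.63 to 1.94) and 2.51 (2.33 to 2.71) times the DMSO level in time order.

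JUND was at 2169, 3008 and 1902 in JQ1, against 1901, 1315 and 901 in DMSO. The arms were close at 2 h, where the interval of their ratio was 1.08 to 1.20, and apart at 4 and 8 h, with ratios of 2.29 and 2.11. JUNB was at 655, 458 and 678 in JQ1, against 344, 391 and 501 in DMSO. Its ratios of 1.91, 1.17 and 1.35 were all above 1, and its JQ1 value at 4 h lay between the DMSO values. ATF3 was at 157, 109 and 178 in JQ1, against 114, 66.5 and 39.7 in DMSO, so the gap widened to a ratio of 4.49 at 8 h (interval 3.45 to 5.90).

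FOS was higher in JQ1 at each time, with ratios of 1.89 (interval 1.34 to 2.71), 5.44 (2.58 to 13.2) and 2.93 (1.39 to 6.74), on 8 and 10 reads in DMSO at 4 and 8 h. The other Fos genes were not. FOSL1 was at 109.8, 57.6 and 24.1 in JQ1, against 252, 186 and 186 in DMSO, and the ratios at the successive times were 0.436, 0.310 and 0.129. FOSL2 was at 13.1, 28.5 and 44.7 in JQ1, below DMSO at each time but above the 14.9 of 0 h from 4 h on. FOSB had a ratio of 0.355 at 2 h (interval 0.310 to 0.406), 0.769 at 4 h and 1.34 at 8 h (0.817 to 2.20).

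MAFF was at 104, 78.4 and 72.2 in JQ1, with ratios to DMSO of 0.602, 0.740 and 0.636. MAFG was at 729.7, 789.9 and 1040.0, with ratios of 0.627, 0.531 and 0.786. Both small MAF genes were below DMSO at each time.

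In the model of all libraries 0 of 10 members and 0% of 11797 genes passed for JQ1 against DMSO with edgeR, 1081 genes had an unadjusted p under 0.05, 5 members among them, and the log2 differences were 1.52 ± 0.49 for FOS, 1.13 ± 0.32 for JUN, 1.24 ± 0.56 for ATF3, 0.90 ± 0.42 for JUND, 0.52 ± 0.39 for JUNB and -2.09 ± 0.61 for FOSL1, each with an adjusted p of 0.508 to 0.641. DESeq2 called 71 genes in either direction and 1 member, FOSL1, which was lower, as were 0.398% of genes, and with no filter on low counts edgeR called 1 member lower, where 0.429% were. In the fit of the JQ1 and DMSO arms, whose spread does not include AZ-5576, 5 of 10 members were higher, where 1.75% of 12011 genes were, and 2 were lower, a share close to the 20.6% of all genes. There edgeR gave JUN 1.15 ± 0.14 (adjusted p = 0.00381), JUND 0.82 ± 0.18 (0.0143), FOS 1.52 ± 0.40 (0.0246), ATF3 1.09 ± 0.31 (0.0332), JUNB 0.53 ± 0.16 (0.0409), FOSL1 -1.89 ± 0.30 (0.00653) and MAFG -0.64 ± 0.14 (0.0141). A difference growing with hours called JUND and ATF3 higher, where 1.94% of genes were, and FOSL1 lower, where 15.8% were, and slopes over hours called 2 members higher, where 1.79% were, and 1 lower, where 16.2% were. Without the AZ-5576 8 h library the model of the remaining libraries called 3 members higher, where 0.93% of genes were, and 2 lower, where 6.23% were. At single times, 1, 2 and 4 of 10 members were at least 2-fold higher in JQ1 than in DMSO at 2, 4 and 8 h, where 1.47%, 2.69% and 3.42% of genes were, and 3, 1 and 1 were at least 2-fold lower, where 5.1%, 8.26% and 14.9% were. Those higher at 8 h were FOS, JUN, JUND and ATF3, and the one lower was FOSL1.

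JUNB, JUN, JUND and MAFF were lower in AZ-5576 than in JQ1. Their log2 differences were -4.16 ± 0.45 (adjusted p = 0.00335), -3.31 ± 0.35 (0.00290), -2.52 ± 0.46 (0.0357) and -2.03 ± 0.40 (0.0456) by edgeR, so 4 of 10 members passed, where 1.17% of genes were lower. ATF3 at -2.58 ± 0.59 (adjusted p = 0.0653), FOS at -1.96 ± 0.50 (0.0871) and FOSL2 at -2.39 ± 0.74 (0.133) did not pass. FOSB at -0.39 ± 0.44 and MAFG at -0.22 ± 0.24 were the smallest, and both were above 0 with TMM scaling, at 0.06 and 0.26. The count was 2 without the 4 h library of AZ-5576, of JQ1 or of DMSO, where 7, 15 and 28 genes in all were lower. It was also 2 without the 8 h library of DMSO (23 of 11663 genes lower), and 8 without AZ-5576 at 2 h (3758 of 11840). A model of these 2 arms alone called 2 members, JUN and JUNB, where 0.154% of genes were lower. DESeq2 and edgeR with no filter each called 7, where 10.2% and 4.36% of genes were lower, and slopes and growing differences called 7 and 8, where 55% and 55.1% were. Because both inhibitors are set against the same DMSO libraries, their differences from DMSO are not independent, and the comparison of the inhibitors uses no DMSO value except through the shared time levels and spread.

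**Figure D3:**
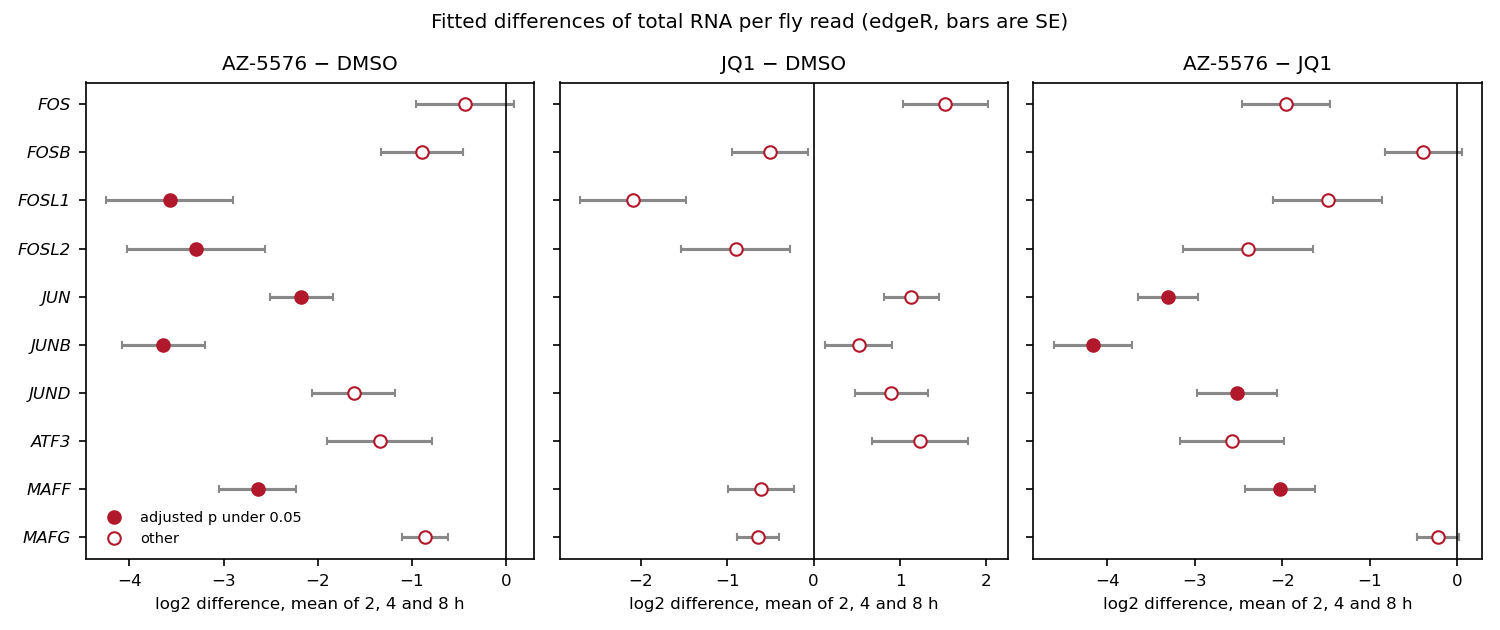
Fitted log2 differences of total RNA per fly read, averaged over 2, 4 and 8 h, for AZ-5576 minus DMSO, JQ1 minus DMSO and AZ-5576 minus JQ1 (edgeR, all 10 libraries). Bars are standard errors and filled points have an adjusted p under 0.05. JUN and JUNB are at -2.18 and -3.64 in the first panel, at 1.13 and 0.52 in the second, and at -3.31 and -4.16 in the third.

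Labelled reads, taken as those made during the pulse, had steep downward slopes for the Jun genes, FOSL1 and ATF3 in DMSO. Labelled JUND was at 661 fly-scaled reads at 0 h and at 534, 194 and 18.1 at 2, 4 and 8 h, which gave a slope of -0.67 ± 0.05 per hour on the log2 scale and a half-life of 1.49 h. ATF3 had a half-life of 1.69 h, FOSL1 of 1.82 h, JUN of 1.95 h and JUNB of 2.08 h, and MAFG of 3.04 h. MAFF had one of 4.46 h, close to the median of all genes, 4.49 h. Labelled ATF3 and MAFF were higher at 2 h than at 0 h in DMSO, so their half-lives describe the fitted line only. The slope of JUND was steeper than that of 99.4% of 8817 genes, of ATF3 than 98.3%, of FOSL1 than 97.2%, of JUN than 95.7% and of JUNB than 93.7%.

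All 7 members that passed the filter were lower with time past the threshold (edgeR), where 88.3% of genes were. Without all 8 h libraries 4 members were, where 1302 of 9153 genes were. A straight line did not describe every gene. Labelled JUND at 2 h in DMSO was still 0.808 times the 0 h library (interval 0.730 to 0.893). JUNB was at 0.915 times (0.648 to 1.29) and MAFG at 1.07 times (0.951 to 1.21). A half-life fitted to the whole chase thus does not describe the first 2 h for JUND, JUNB and MAFG. MAFF had 25.0 fly-scaled labelled reads at 0 h and 48.8, 26.3 and 9.64 at 2, 4 and 8 h in DMSO, so that its 2 h library was 1.95 times the 0 h library (interval 1.27 to 3.03). ATF3 likewise had a 2 h to 0 h ratio of 1.59 (1.01 to 2.51). FOSB had 1 labelled read at 0 h and 46 at 2 h in DMSO. ATF3 had 8 and 3 labelled reads at 4 and 8 h in DMSO. Labelled reads of MAFF, ATF3 and FOSB were thus not highest at 0 h, and the cause was not tested. The half-lives of MAFF and ATF3, and the place of their slopes among all genes, do not describe a steady loss from 0 h.

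The slope of labelled RNA differed from DMSO in few members. In AZ-5576 the slope of JUNB was steeper, with a difference of -0.33 ± 0.09 per hour (adjusted p = 0.0157), and that of MAFG shallower, with 0.14 ± 0.04 (adjusted p = 0.0145). Thus 1 of 7 members was lower, where 1.22% of genes were, and 1 was higher, where 3.53% were. With TMM scaling 3 were lower, where 3.75% were, and 1 higher, where 2.68% were, and DESeq2 called 1 higher, where 2.2% were. Labelled JUNB had only 25, 20 and 2 reads at 2, 4 and 8 h in AZ-5576, and it was not called by DESeq2 or without AZ-5576 at 8 h. Labelled MAFG was at 408, 336 and 176 in AZ-5576, against 420.5, 227 and 76.6 in DMSO, and at 392 at 0 h, so the arms were alike at 2 h and apart at 4 and 8 h. Neither was called without the DMSO 8 h library, where 35 of 8941 genes were. JUNB alone was called without AZ-5576 at 4 h (238 of 8839 genes called), and JUN alone, at -0.50 ± 0.10, without AZ-5576 at 8 h (26 of 8868). Without DMSO at 4 h or without the 0 h library 3 members were called, where 281 of 8876 and 764 of 8677 genes were.

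In JQ1 labelled JUN and JUND fell less steeply, with slope differences of 0.26 ± 0.05 (adjusted p = 7.17e-04) and 0.21 ± 0.04 (adjusted p = 4.65e-04), so 2 of 7 members were higher, where 0.318% of genes were. With TMM scaling 1 was, where 0.646% were, and with DESeq2 1, where 0.193% were. Labelled JUN was at 215, 105 and 43.0 in JQ1, against 98.5, 75.3 and 6.81 in DMSO, and at 184 at 0 h. Its 2 h library in JQ1 was thus above 0 h and that in DMSO below it. Labelled JUNB in JQ1 was at 105 at 2 h, 1.88 times its 0 h level of 56.1 (interval 1.44 to 2.47). A slope of labelled reads is therefore not a measure of loss alone for these genes. Neither JUN nor JUND was called without the DMSO 8 h library, where 10 of 8941 genes were called.

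The labelled share, which does not depend on the fly reads, also differed between the arms. Of JUND reads 57.9% were labelled at 0 h, and 47.6%, 36.1% and 30.9% at 2, 4 and 8 h in AZ-5576, 26.0%, 11.1% and 3.79% in JQ1, and 28.1%, 14.7% and 2.02% in DMSO. The JUND share was thus above those of JQ1 and DMSO at each time in AZ-5576, and JQ1 and DMSO were close at 2 h. Over genes with at least 100 reads the median share was 51.4% at 0 h, 41.6% at 8 h in AZ-5576, 11.5% in JQ1 and 9.41% in DMSO, so at 8 h JUND was below the median in every arm.

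The labelled share of JUN and JUNB was under 10% at 8 h in AZ-5576 too. That of JUNB was 41.7%, 35.7% and 4.55% at 2, 4 and 8 h, the last from 2 of 44 reads (interval 0.555% to 15.5%). The JUN share was 67.3% at 0 h, above that of 83.3% of 7699 genes, and 38.3%, 17.7% and 8.77% at 2, 4 and 8 h in AZ-5576 (8 h interval 6.07% to 12.2%). Its unlabelled reads in AZ-5576 were at 103, 53.8 and 141 fly-scaled reads at 2, 4 and 8 h, so the higher total of 8 h than of 4 h lay in unlabelled reads. The labelled reads were at 63.9, 11.6 and 13.5. JUNB, by contrast, had unlabelled levels of 25.7, 24.5 and 17.8 in AZ-5576, against 292, 365 and 495 in DMSO.

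At 2 h, the time of its peak, FOSB had a lower labelled share than every other member in each arm. Its share at 2 h was 3.75% in AZ-5576 (interval 1.95% to 6.46%), 8.72% in JQ1 (5.87% to 12.4%) and 6.74% in DMSO (4.98% to 8.89%), where the medians of all genes were 47.4%, 41.8% and 40.2%. Nearly all FOSB reads of the 2 h libraries were therefore unlabelled in AZ-5576, JQ1 and DMSO alike. FOS had 3 labelled of 19 reads at 2 h in AZ-5576, 22 of 118 in JQ1 and 13 of 47 in DMSO.

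**Figure D4:**
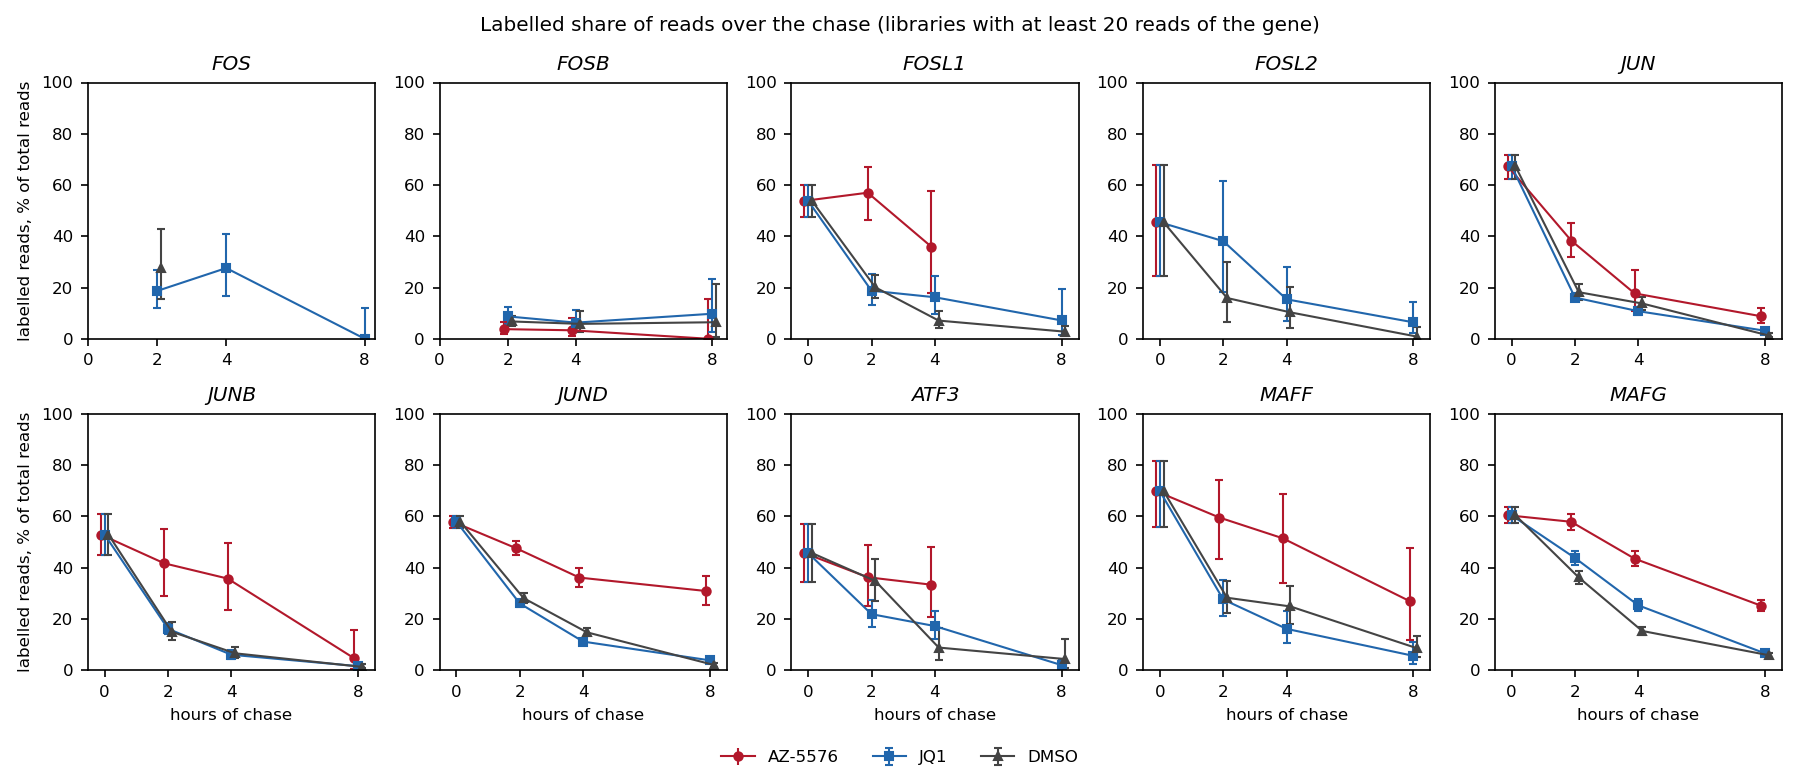
Labelled reads as a percentage of total reads for each gene against hours of chase in AZ-5576, JQ1 and DMSO, for libraries with at least 20 reads of the gene. Bars are exact 95% intervals. JUND is at 30.9% in AZ-5576 at 8 h, against 3.79% in JQ1 and 2.02% in DMSO, and FOSB is under 10% in every library shown.

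Lists of genes that signal to AP-1, pair with it or are known as its targets were read from the same models. Of 16 kinases and factors upstream of AP-1, 1 was lower in AZ-5576 against DMSO, where 2.38% of all genes were, a share that holds for the next lists too. It was SRF, the serum response factor that binds the FOS promoter, at -2.07 ± 0.33 (edgeR, adjusted p = 0.0232). All 16 had values below 0, with a median of -1.12 beside -0.82 for all genes. Of 12 other leucine zipper partners 6 were tested and none passed, with MAFK, the remaining small MAF gene, at -2.01 ± 0.56 (adjusted p = 0.0557). Of the 6 partners of small MAF proteins 5 were tested and none passed, and NFE2 was at -2.04 ± 0.70 (adjusted p = 0.0691). None of 5 regulators of AP-1 protein turnover passed, and COP1, a ubiquitin ligase for JUN, was at -1.71 ± 0.45 (adjusted p = 0.0544).

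Of 16 genes widely described as AP-1 targets 7 were tested. VIM, an intermediate filament protein, was lower in AZ-5576 against DMSO at -1.63 ± 0.35 (edgeR, adjusted p = 0.0464), where 2.38% of all genes were. No gene of these lists passed for JQ1 against DMSO in the model of all libraries, where 0% of all genes did. MAFA, a large MAF factor, was lower in AZ-5576 than in JQ1 at -4.86 ± 0.95 (adjusted p = 0.0432), where 1.17% of all genes were lower. Over the chase in DMSO total RNA rose for 6 of 16 upstream genes, among them MAPKAPK2 by 0.18 ± 0.03 per hour and SRF by 0.16 ± 0.04, and for 4 of 7 targets, among them PLAU, the urokinase gene, by 0.44 ± 0.08 (adjusted p = 2.57e-04) and VIM by 0.28 ± 0.03, where 24.5% of all genes rose. The target MT2A fell by 0.13 ± 0.04, where 3.78% fell. The labelled slope of FBXW7, a ubiquitin ligase for JUN, was shallower in AZ-5576 than in DMSO by 0.23 ± 0.06 per hour (adjusted p = 0.00352), where 3.53% of all genes were higher, and those of the targets PLAUR and VIM steeper, where 1.22% were lower, at -0.31 ± 0.06 (adjusted p = 9.01e-05) and -0.12 ± 0.03 (adjusted p = 0.0108).

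For the member with the most total reads of each class, the genes with the most similar total RNA over the 10 libraries were sought among the 8203 genes with a mean of at least 100 reads by Pearson's r on log2 levels. These are descriptions over libraries that share the fly scale. For FOSB they were ALDH5A1 (r = 0.873), RUFY3 (0.823) and RFX5 (0.808), and for JUND CNOT4 (0.979), ARID5A (0.966) and CYP20A1 (0.963). For ATF3 they were IDI1 (0.958), SESN2 (0.956) and JUND (0.955), and for MAFG TRAPPC2 (0.949), GFM2 (0.928) and PPP1R18 (0.923). JUND was thus among the 3 genes listed for ATF3, but ATF3 was not among those for JUND. Within the JQ1 arm JUND was highest at 4 h, at 3008 fly-scaled reads, where ATF3 was lowest, at 109.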

How the data were processed

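The 10 libraries of K562 RNA were made with a 3′ end kit (QuantSeq, forward) after iodoacetamide treatment, which lets 4-thiouridine be read as a T-to-C change, per the labels' protocols. The authors deposited raw read counts per gene for all human reads, for reads named nascent (taken here as labelled reads) and for fly reads. The rule for calling a read labelled, the aligner, the counting tool and its strand setting are not given in the sources used here. The submitters named the builds hg38 and dm6, Trim Galore 0.6.5, bedtools and bcl2fastq 2.17.1.14, per the submitters' processing notes.

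Counts were fitted with edgeR 4.0.16 (quasi-likelihood, R 4.3.3), with the fly read total as library scale, a minimum mean count of 20 per gene, and Benjamini-Hochberg adjustment over all 11797 (total) or 8817 (labelled) genes at 0.05. Total RNA was compared by a level per time plus a term per inhibitor (4 residual degrees of freedom, common coefficient of variation 0.362), and slopes by a common 0 h level plus a slope per arm (6 degrees of freedom, 0.205 for total and 0.188 for labelled RNA). A straight line over the chase gives the half-life as the inverse of a slope below 0. Standard errors are those implied by the F statistic. The alternatives were DESeq2 1.42.0, TMM scaling, no low-count filter, other models and libraries left out. Ranks and medians of log2 ratios used a pseudocount of 0.5 reads. Read intervals are exact (95%, Clopper-Pearson or its conditional form). Reads are not independent molecules, so intervals cover counting error only. Symbols matched 55381 of 59204 identifiers. The fits were also run on simulated counts. These had less spread than the 0.362 of the level model and no change over time in DMSO or JQ1, so they do not check the p-values given here.

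All 10 members are named, and of each other list up to 4 genes past the threshold or else the largest 2. The members and lists were chosen with earlier results of these data known.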

Additional observations from a re-analysis of the deposited data

How the results depend on the processing

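No paired analysis was possible because each condition has 1 library and the labels give no replicate numbers. Of the values for single members under the alternatives, 947 kept their direction and side of the threshold, 94 passed newly, 85 no longer passed and 23 changed sign. Counts of members past the threshold depended on the setting, and the cause was not tested unless named. Genes called in all, in either direction, are given beside each count. For AZ-5576 against DMSO (5) it was 8 with DESeq2 (4192 of 11797 genes) and 8 without all 2 h libraries (5748 of 11882). It was 0 without all 4 h libraries (6 of 11834), 8 with slopes over hours (8709 of 11797) and 9 with a difference growing with hours (8738 of 11797). When single libraries were left out it was 0 to 8, with 1 to 6866 genes called. For JQ1 against DMSO (0) it was 1 without a low-count filter (212 of 30316), with DESeq2 (71 of 11797) or without all 2 h libraries (223 of 11882). It was 3 with slopes (2126 of 11797) or a growing difference (2089 of 11797) and 7 with the 2 arms alone (2680 of 12011). Without single libraries it was 0 to 5, with 0 to 847 genes called. For AZ-5576 against JQ1 (4) it was 7 without a filter (1358 of 30316), with DESeq2 (1212 of 11797), without all 2 h libraries (3073 of 11882) or with slopes (6590 of 11797). It was 8 with a growing difference (6603 of 11797), and 2 without all 4 h libraries (23 of 11834) or with the 2 arms alone (18 of 11673). Without single libraries it was 2 to 8, with 7 to 3786 genes called. The DMSO slope of total RNA (4) gave 1 to 6 without single libraries, with 468 to 3992 genes called. The labelled slope in DMSO (7) gave 4 without all 8 h libraries (1304 of 9153) and 6 to 7 without single libraries, with 3370 to 7968 genes called. Its difference in AZ-5576 (2) gave 4 with TMM scaling (567 of 8817), and 1 with DESeq2 (264), without all 2 h (547) or without all 8 h libraries (15). It gave 0 without all 4 h libraries (36) or with the 0 h library and the compared arms alone (183), and 0 to 3 without single libraries (26 to 764). In JQ1 (2) the difference gave 1 with TMM scaling (91), DESeq2 (37), or without all 2 h (50) or all 4 h libraries (7). It gave 0 without all 8 h libraries (5) and 0 to 2 without single libraries (10 to 87).

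Signs changed only in values that did not pass under that alternative. FOS in AZ-5576 against DMSO was 0.32 with TMM scaling, 0.0011 with a growing difference and -0.84 to 0.12 without single libraries. FOSB in JQ1 against DMSO was 0.024 without all 2 h libraries, and in AZ-5576 against JQ1 0.063 with TMM scaling, 0.064 without all 8 h libraries and -0.78 to 0.058 without single libraries. MAFG in AZ-5576 against JQ1 was 0.26 with TMM scaling. Total slopes in DMSO were 0.085 (FOSB) and 0.014 (JUND) without all 8 h libraries, -0.040 (FOSL1) with TMM scaling and -0.0078 with the compared arms alone, and without single libraries -0.011 to 0.056 (FOSL1) and -0.0087 to 0.15 (JUN). Labelled slope differences in AZ-5576 were 0.091 (JUN) without all 4 h libraries and -0.048 (JUND) without all 8 h libraries, and without single libraries -0.50 to 0.011 (JUN), -0.049 to 0.089 (JUND) and -0.098 to 0.059 (ATF3). Over all genes the median log2 difference shifted with TMM scaling to -0.08 for AZ-5576 against DMSO, 0.01 for JQ1 against DMSO and -0.03 for AZ-5576 against JQ1, where fly scaling gave -0.82, -0.31 and -0.46. Depth limits FOS, FOSB and FOSL2, which had 6, 2 and 2 reads in their lowest libraries.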
